A study of Mus musculus with 16 samples.

Results

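The genes of antigen presentation by the major histocompatibility complex (MHC) were followed in livers of mice lacking Atg7, Nrf2 or both. They were taken by gene name: every non-control probe whose name in the scanner files begins with H2-, the prefix of the mouse MHC, or is B2m, Tap1, Tap2, Tapbp, Psmb8, Psmb9, Psmb10, Psme1, Psme2, Cd74, Ciita or Nlrc5. The rule took 77 of 41174 probes, which carried 47 of 28090 gene names. No probe carried the name Nlrc5, so that gene was not analysed here. By name, 40 probes belonged to class I heavy chains, 14 to the genes that supply class I with its light chain and its peptides, 20 to class II and its partners, and 3 to other H2- names.

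Total liver RNA was hybridised on arrays read in 2 colours. The groups were Atg7 conditional knockout (Atg7F/F:Mx1-Cre, here Atg7 cKO), the double knockout (Atg7F/F:Mx1-Cre:Nrf2-/-, here dKO), Nrf2 knockout (Nrf2-/-, here Nrf2 KO) and wild type. Per the series' design text, knockout and control mice alike received pIpC at 8 weeks of age, and livers were taken 4 weeks later. The agent pIpC is a double-stranded RNA mimic that induces interferon, and interferon switches on Cre from the Mx1 promoter in liver cells and also in blood-forming cells, so the deletion is not limited to hepatocytes. The enzyme Atg7 is required for autophagosome formation. Nrf2, the product of Nfe2l2, is the transcription factor that turns on antioxidant genes. Each comparison had 2 experiments, each a pair of arrays with the dyes exchanged, and a pair counted as 1 replicate. Atg7 cKO was set against wild type in experiments 2 and 5, dKO against wild type in experiments 3 and 6, dKO directly against Atg7 cKO in experiments 7 and 8, and Nrf2 KO against wild type in experiments 1 and 4. The labels give no strain, no MHC haplotype, no sex and no animal numbers, and do not say whether wild-type mice carried floxed alleles or Cre, so p-values measure the spread between experiments, which may be partly technical.

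Every value is a log2 ratio of knockout over its partner unless a level is named, and 1 log2 unit is a 2-fold change. A probe was called when the adjusted p of the fit over all 23581 probes kept was under 0.05. On the brightest of 3 Nfe2l2 probes the log2 ratio was -3.88 in Nrf2 KO and -3.71 in dKO, and on the brighter of 2 Atg7 probes it was -0.80 in Atg7 cKO and -0.73 in dKO, all called. The dimmest Nfe2l2 probe (-0.06 in Nrf2 KO) and the dimmer Atg7 probe (-0.08 in Atg7 cKO) were not called, and where they lie relative to the deleted parts is not given in the sources used here. The sex-linked transcript Xist had log2 signals between 5.75 and 5.80 in every channel of experiments 1 to 3, while experiments 4 to 6 had 10.87 to 11.34, so each comparison with wild type had 1 experiment from either set. The Y-linked transcript Eif2s3y had 8.21 to 8.55 in experiments 1 to 3. In experiments 4 to 6 it had 5.82 to 5.87. By these transcripts the first set held male RNA and the second female RNA. Spread between the 2 experiments of a comparison with wild type thus includes any sex difference. Sex cannot be told apart from other differences between the sets. Albumin mRNA (Alb), the defining hepatocyte transcript, had a mean log2 signal of 14.63.

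MHC class I molecules stand on nearly all nucleated cells. A heavy chain (H2-K1 and H2-D1 are the classical ones in mouse) pairs with B2m and shows CD8 T cells peptides that immunoproteasome subunits cut and the Tap transporter carries into the endoplasmic reticulum. Class II molecules, made mainly by macrophages, dendritic cells and B cells, show CD4 T cells peptides from endosomes, with Cd74 as their chaperone, H2-DM as the peptide loader and Ciita as the master transcription factor. Interferon gamma, acting in part through the transcription factor Irf1, is the classic inducer of both.

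The fits tested 61 of the 77 probes, with 34 gene names, each of which exceeded background clearly on 4 or more of 24 channels; 52 of these did so in every channel. The probes left out carried the names H2-DMb2, H2-Ea, H2-Eb2, H2-Ob, H2-M1, H2-M9, H2-M10.1, H2-M10.3, H2-M10.4, H2-M10.5, H2-M10.6, H2-M11 and H2-T3, together with 1 H2-D1 probe. Because a probe could be kept through the group in which it is high, the counts below describe the probes kept and not the whole family.

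Antigen presentation transcripts were higher in both autophagy-deficient livers, and more so in dKO. In Atg7 cKO against wild type, 37 of the 61 probes were called higher and 1 lower, where 21.9% of all probes tested were called higher and 15.2% lower. In dKO against wild type 48 were called higher and 1 lower, against 19.3% and 14.9% of all probes. In the direct comparison of dKO with Atg7 cKO 33 were called higher and 2 lower, against 5.68% and 7.36% of all probes. In Nrf2 KO against wild type no member was called, where 0.0127% of all probes were, and 4 of the 61 had an unadjusted limma p under 0.05, as did 868 of all 23581. A fit on single arrays with a dye term called 2 members, Cd74 and H2-DMb1, in Nrf2 KO. Without experiment 5 the members called in Atg7 cKO numbered 25 in place of 38. The direct count rested on both experiments: 0 members were called without experiment 7 and 13 without experiment 8, and only 2 in a fit of those experiments alone.

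**Figure D1:**
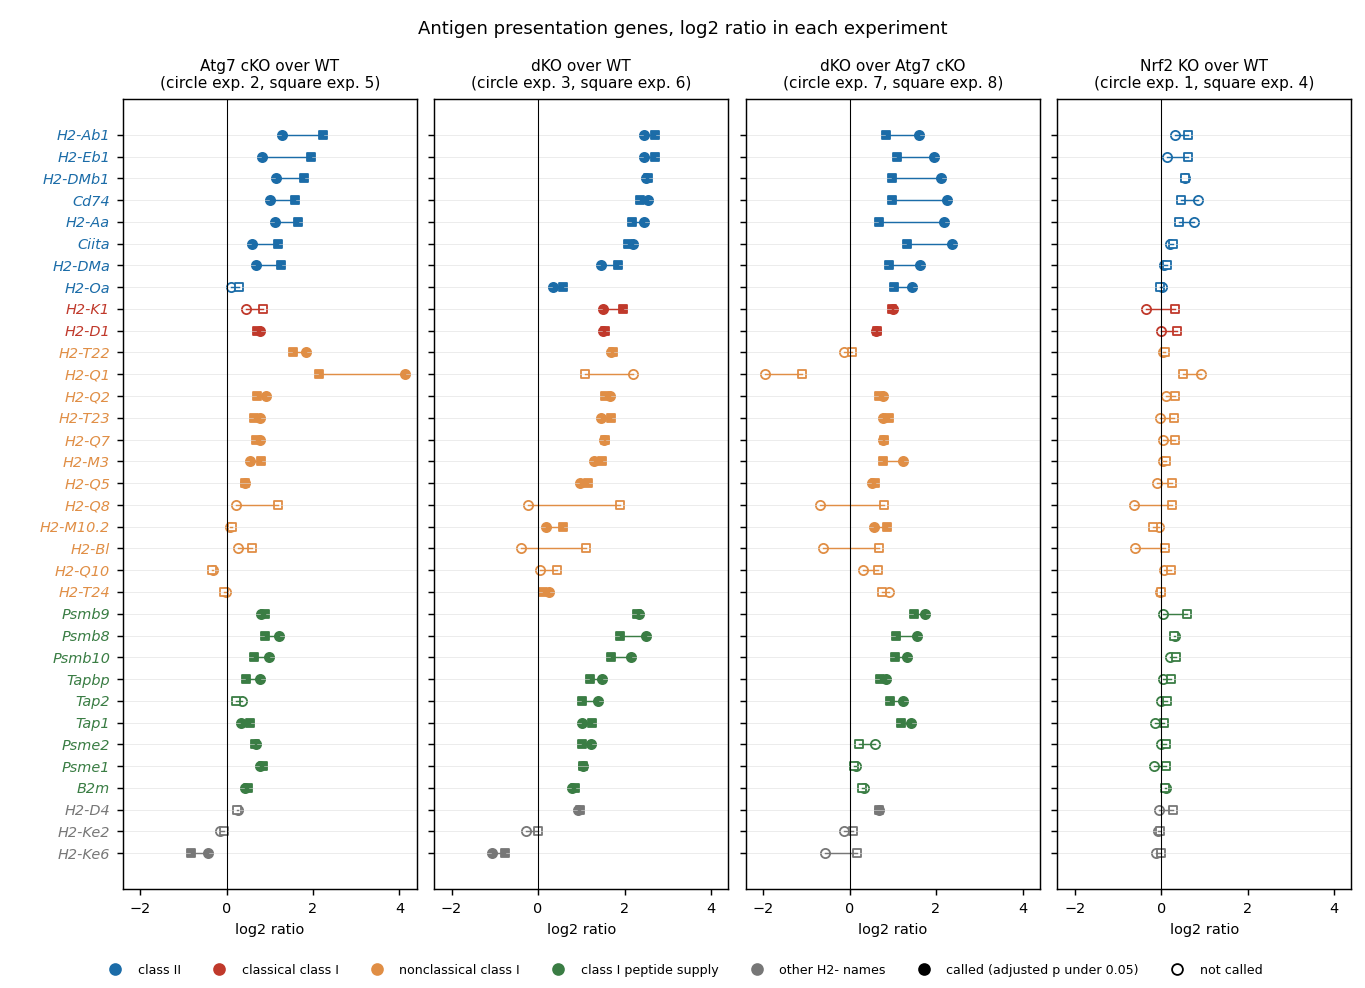
Log2 ratio of each of the 34 genes (brightest probe) in the 2 experiments of each comparison, with filled symbols for calls at an adjusted p under 0.05. All 8 class II genes and all 9 peptide supply genes lie above 0 in both dKO experiments, and 30 of 34 genes have a larger fitted ratio in dKO than in Atg7 cKO.

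Class II genes differed from wild type by more than class I genes did. Over the brightest probe of each gene, the class II median (8 genes) was 0.92 and 1.61 in the Atg7 cKO experiments 2 and 5, against a class I median (14 genes) of 0.50 and 0.69. In the dKO experiments 3 and 6 the class II median was 2.44 and 2.26, against 1.38 and 1.50 for class I. Directly against Atg7 cKO the class II median in dKO was 2.03 in experiment 7 and 0.99 in experiment 8, beside 0.58 and 0.72 for class I. In Nrf2 KO it was 0.26 and 0.43, beside -0.01 and 0.26. The class II median was thus above that of class I in 8 of 8 experiments, by 0.17 to 1.46 log2 units. Over all probes in place of genes it was above in 7 of 8, experiment 4 being the exception (-0.06). The median over all probes kept was within 0.01 of 0 in every comparison. The peptide supply genes (9 genes) had medians of 0.76 and 0.63 in Atg7 cKO, 1.40 and 1.21 in dKO, and 1.25 and 0.94 in dKO directly against Atg7 cKO. Experiments against wild type share the same kind of control, and genes are not replicates, so no p is attached to these differences.

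**Figure D2:**
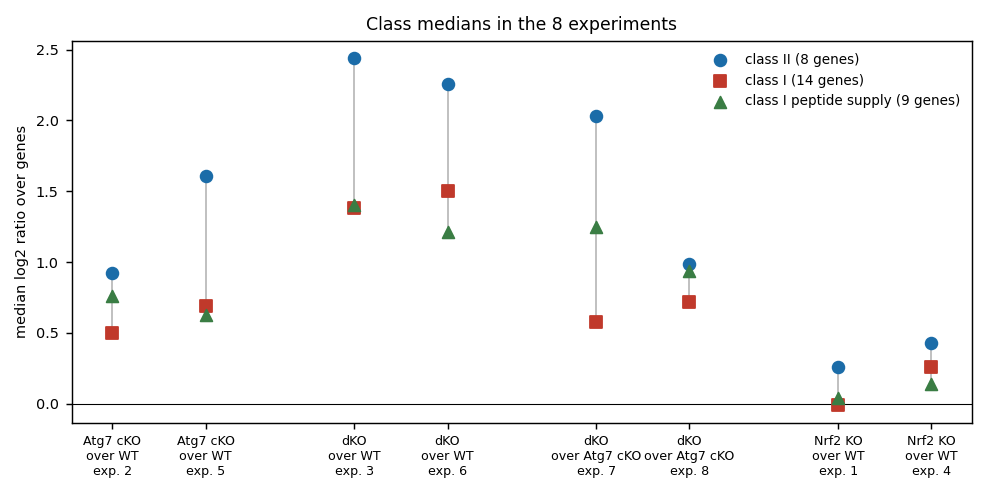
Median log2 ratio over the genes of class II, class I and class I peptide supply in each of the 8 experiments. The class II point is the highest of the 3 in all 8, with its largest lead over class I in experiment 7 (1.46) and its smallest in experiment 4 (0.17).

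The gap between classes in Atg7 cKO came with a difference between the experiments. All 8 class II genes had a larger ratio in experiment 5 than in experiment 2. H2-Eb1, a class II beta chain, had log2 ratios of 0.82 and 1.96 in Atg7 cKO and 2.44 and 2.70 in dKO. The call in Atg7 cKO (fitted 1.39, SE 0.28, adjusted p = 0.015) was lost without experiment 5 (adjusted p = 0.0554).

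Among the class II chains, H2-Aa, the alpha chain of the I-A molecule, had a log2 signal of 8.05 and 9.15 in Atg7 cKO, against 6.94 and 7.51 in wild type in the same experiments. In dKO it was 10.41 and 9.79, against 7.97 and 7.61 in wild type. Neither pair of groups overlapped. The log2 ratio was 1.38 (SE 0.16, adjusted p = 0.003) in Atg7 cKO and 2.31 (SE 0.16, adjusted p = 0.00094) in dKO. In dKO directly against Atg7 cKO it was 1.43 (SE 0.35, adjusted p = 0.048). That direct call was lost under 10 alternative settings, among them through wild type (0.93, adjusted p = 0.0917).

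H2-Ab1, the beta chain of I-A, had the largest fitted class II ratios over wild type. They were 1.27 and 2.23 in Atg7 cKO (fitted 1.75) and 2.46 and 2.71 in dKO (fitted 2.59), both called. In dKO over Atg7 cKO it had 1.61 and 0.84 (fitted 1.22), also called. That direct call was lost under 9 alternative settings, among them through wild type (0.83, adjusted p = 0.23). Cd74, the invariant chain that guides class II to the endosome, was at 1.01 and 1.58 in Atg7 cKO, 2.54 and 2.35 in dKO and 2.26 and 0.98 in the direct comparison. H2-DMb1, a chain of the peptide loader, was close to it, with 2.49 and 2.54 in dKO. Its partner H2-DMa was lower, at 1.45 and 1.84. Ciita itself was at 0.58 and 1.19 in Atg7 cKO (fitted 0.88, SE 0.14, adjusted p = 0.0078) and at 2.19 and 2.07 in dKO (fitted 2.13, SE 0.14, adjusted p = 0.0009). It was the class II gene with the largest direct difference, 2.37 and 1.32 over Atg7 cKO (fitted 1.85, SE 0.26, adjusted p = 0.011). It was also the only class II gene called in dKO over Atg7 cKO through wild type (1.25, adjusted p = 0.04), a contrast in which 4.29% of all probes were called.

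H2-Oa, a chain of the loading inhibitor H2-DO, was dim, with a log2 signal of 6.48 and 6.60 in dKO against 6.14 and 6.02 in wild type. It was not called in Atg7 cKO (0.10 and 0.28), was called in dKO (0.34 and 0.58) and had 1.44 and 1.03 in the direct comparison. In Atg7 cKO it was called with processed signals (1.1, adjusted p = 0.00886) and with an offset of 10 (0.48, adjusted p = 0.029). The dKO call was lost without experiment 6 (adjusted p = 0.0727). The direct ratios come from the deposited value table, which carries no offset of 50, so ratios of dim genes are larger there than in the comparisons with wild type.

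The classical class I heavy chains were bright in every channel. H2-K1 had a log2 signal of 14.73 and 14.82 in dKO, against 13.23 and 12.86 in wild type, and its log2 ratio of 1.50 and 1.97 was called (fitted 1.73, SE 0.20, adjusted p = 0.0031). In Atg7 cKO it was at 14.02 and 14.07, against 13.56 and 13.23 in wild type. There the ratio of 0.46 and 0.84 was not called (fitted 0.65, SE 0.20, adjusted p = 0.052) and lay close enough to the threshold that 9 alternative settings called it (adjusted p between 0.00208 and 0.315 over all settings). Of the other 3 H2-K1 probes, the dimmest was called there (0.39 and 0.26, adjusted p = 0.0425). Directly over Atg7 cKO, H2-K1 was 1.01 and 0.98 in dKO (adjusted p = 0.019), a call lost without experiment 7 (adjusted p = 0.159) or 8 (adjusted p = 0.0878). Probe 3 by brightness was not called directly (fitted 0.53, adjusted p = 0.0827). H2-D1 had 0.77 and 0.70 in Atg7 cKO, 1.50 and 1.55 in dKO and 0.60 and 0.62 in the direct comparison, all called.

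Among the supply genes, the 3 interferon-inducible catalytic subunits of the immunoproteasome had the largest ratios in dKO over wild type. Psmb9 had a log2 signal of 12.21 and 12.10 in dKO, against 9.89 and 9.83 in wild type, and 10.47 and 10.57 in Atg7 cKO, against 9.67 and 9.69 in wild type. Its log2 ratio was 2.30 in dKO (SE 0.13, adjusted p = 0.00074), 0.84 in Atg7 cKO (SE 0.13, adjusted p = 0.0073) and 1.61 in dKO directly over Atg7 cKO (SE 0.16, adjusted p = 0.0042). The levels of the 3 genotypes did not overlap. Psmb8 had 2.50 and 1.90 in dKO and 1.21 and 0.89 in Atg7 cKO, and Psmb10 had 2.15 and 1.69 in dKO and 0.98 and 0.63 in Atg7 cKO.

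The peptide transporter and its bridge to class I had smaller ratios than these over wild type. Tap1 had 0.34 and 0.54 in Atg7 cKO, 1.01 and 1.24 in dKO and 1.41 and 1.18 in dKO directly over Atg7 cKO. Tap2 was not called in Atg7 cKO (0.36 and 0.21, adjusted p = 0.08) and was called in dKO (1.40 and 1.02) and directly (1.25 and 0.94). Tapbp, or tapasin, which bridges the transporter and the heavy chain, had 0.76 and 0.46 in Atg7 cKO, 1.47 and 1.21 in dKO and 0.84 and 0.71 directly, all called. Its dimmer probe was called in dKO alone (fitted 0.49, against 0.16 in Atg7 cKO over wild type and 0.50 directly).

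Other supply genes rose in both knockouts, with a direct difference that did not pass the test on the brightest probe. Psme1, a subunit of the proteasome activator PA28, had 0.77 and 0.84 in Atg7 cKO (adjusted p = 0.0017), 1.03 and 1.03 in dKO, and only 0.15 and 0.11 directly over Atg7 cKO (adjusted p = 0.44). Psme2, its partner, had 0.68 and 0.66 in Atg7 cKO, 1.22 and 1.02 in dKO and 0.58 and 0.22 directly (adjusted p = 0.092). B2m, the class I light chain, had 0.43 and 0.49 in Atg7 cKO, 0.78 and 0.85 in dKO and 0.33 and 0.28 directly (adjusted p = 0.08). These 3 were the supply genes whose brightest probe was not called in the direct comparison. The dimmest B2m probe was called directly (0.96 and 0.73, fitted 0.85, adjusted p = 0.0131) and not in Atg7 cKO over wild type (fitted 0.22, adjusted p = 0.0657).

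The nonclassical heavy chains held the widest range, and their probes need care because several resemble those of other genes. H2-T22, a class I-like chain seen by gamma-delta T cells, had a log2 signal of 12.91 and 12.47 in Atg7 cKO, against 11.07 and 10.95 in wild type, and 12.57 and 12.82 in dKO, against 10.89 and 11.09 in wild type. Its log2 ratio was 1.69 (SE 0.08, adjusted p = 0.00053) in Atg7 cKO and 1.70 (SE 0.08, adjusted p = 0.00066) in dKO. Directly, dKO over Atg7 cKO was -0.13 and 0.06 (fitted -0.04, SE 0.12, adjusted p = 0.86). These values come from the brightest H2-T22 probe, which the array annotation lists for H2-T10 and H2-T22 both. The other 2 H2-T22 probes are listed for H2-T22 alone. They gave fitted ratios of 1.60 and 1.29 in Atg7 cKO, 1.59 and 1.16 in dKO, and -0.03 and -0.07 directly. H2-T22 thus rose in both knockouts with no difference detected between them. H2-T23, the Qa-1 heavy chain recognised by natural killer cell receptors, was at 0.78 and 0.62 in Atg7 cKO, 1.45 and 1.69 in dKO and 0.77 and 0.90 directly (adjusted p = 0.011).

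H2-Q1 had the largest ratio of any member in Atg7 cKO, 4.12 in experiment 2 and 2.13 in experiment 5 (fitted 3.13, SE 0.51, adjusted p = 0.0081). Its log2 signal was 11.10 and 10.97 in Atg7 cKO, against 6.98 and 8.84 in wild type. Wild-type levels split by set: those of experiments 1 to 3 lay between 6.68 and 6.98 and those of experiments 4 to 6 between 8.84 and 8.98, whereas the Atg7 cKO levels of the 2 sets were close. In dKO the signal was 9.09 and 9.96, below both Atg7 cKO values, and the ratio over wild type of 2.20 and 1.09 was not called (adjusted p = 0.058), but 8 alternative settings called it, among them set as a block (adjusted p = 0.00855). Over all settings its adjusted p ran between 0.00104 and 0.351. Directly, dKO over Atg7 cKO was -1.96 and -1.10 (fitted -1.53, SE 0.75, adjusted p = 0.21). Among the brightest probes, H2-Q1 had the fitted ratio in dKO that lay farthest below that in Atg7 cKO, a difference that did not pass the test.

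**Figure D3:**
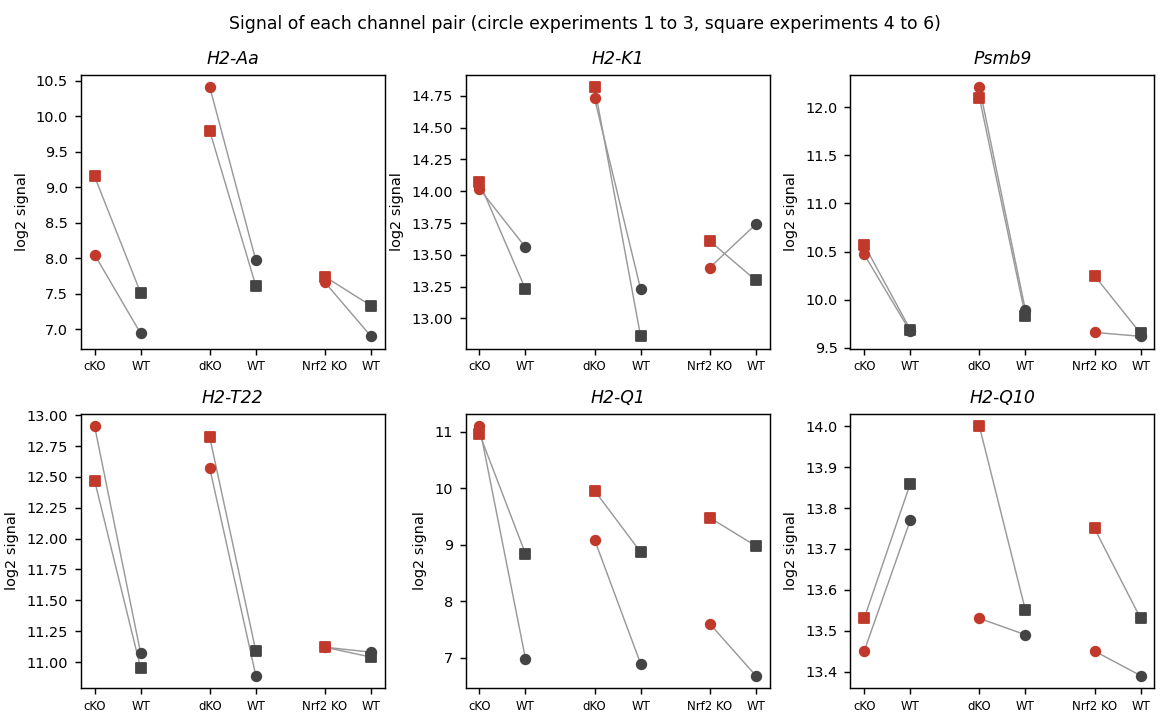
Log2 signal in the knockout channel (red, left) and in the wild-type channel (dark, right) of each experiment for 6 genes, on the scale normalised between channels. H2-Aa, H2-K1 and Psmb9 are highest in dKO, H2-T22 is alike in Atg7 cKO and dKO, and H2-Q1 is highest in Atg7 cKO with wild-type levels that differ between the sets.

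H2-Q2, H2-Q7, H2-T23 and H2-D1 gave nearly the same values: fitted 0.80, 0.73, 0.70 and 0.74 in Atg7 cKO and 1.60, 1.53, 1.57 and 1.53 in dKO, all called. The array annotation lists the brightest H2-D1 probe for H2-D1 and H2-Q2 both. That probe (mm9, chr17:35403132-35403191, plus strand) and the H2-Q2 probe (mm9, chr17:35482113-35482172, plus strand) overlap by 50 positions with 3 differences, shown in capitals, which is why both are printed.
H2-D1 brightest probe: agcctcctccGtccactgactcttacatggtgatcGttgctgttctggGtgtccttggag
H2-Q2 brightest probe: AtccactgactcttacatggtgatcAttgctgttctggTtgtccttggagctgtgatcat
Signal from H2-D1 and H2-Q2 cannot be told apart on these probes, although each name enters the class counts and medians given here. The second H2-D1 probe, listed for H2-D1 alone, had fitted values of 0.82 in Atg7 cKO, 1.60 in dKO and 0.70 directly, all called. The dimmest of 3 H2-Q2 probes was called in dKO (fitted 0.75) and not in Atg7 cKO (fitted 0.24, adjusted p = 0.0592). Probes of H2-Q7 and H2-T23 matched at 84.7% of 59 aligned positions. Of the 77 member probes, 4 were listed for over 1 gene and 61 for exactly 1.

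H2-Q10, a class I chain secreted by hepatocytes, had probes that disagreed. Its brightest probe had -0.32 and -0.33 in Atg7 cKO and was not called (adjusted p = 0.058). The other 3 probes had fitted values of -0.21, -0.08 and 0.21 there, also without a call. The second brightest probe alone was called, at 0.45 and 0.47 in Atg7 cKO (adjusted p = 0.022) and 0.98 and 1.20 in dKO. That probe (mm9, chr17:35610210-35610269, plus strand) is listed for H2-D1, H2-Q1, H2-Q6 and H2-Q10, and it shares 35 bases, in capitals, with the probe named H2-Q5 (mm9, chr17:36246864-36247298, minus strand). The H2-Q5 probe gave 0.44 and 0.43 in Atg7 cKO and 0.96 and 1.14 in dKO, close to the shared H2-Q10 probe. A probe listed for H2-Q10 alone (probe 4 by brightness, mm9, chr17:35607907-35607966, plus strand) is printed beside them and had -0.08 and -0.08 in Atg7 cKO and 0.19 and 0.66 in dKO, neither called.
H2-Q10 probe 2, shared: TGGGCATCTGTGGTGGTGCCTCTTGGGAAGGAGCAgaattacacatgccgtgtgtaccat
H2-Q5 probe, shared: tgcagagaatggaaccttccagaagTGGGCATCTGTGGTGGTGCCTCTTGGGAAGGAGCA
H2-Q10 probe 4, listed for H2-Q10 alone: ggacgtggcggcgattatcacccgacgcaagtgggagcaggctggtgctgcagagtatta

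The remaining class I names were mixed. H2-M3, which presents formylated bacterial peptides, had 0.53 and 0.80 in Atg7 cKO, 1.30 and 1.47 in dKO and 1.24 and 0.77 directly, all called on its bright probe; the dim one was called in dKO alone. H2-M10.2 was called in dKO (0.17 and 0.59) and directly (0.56 and 0.88), and H2-T24 only in dKO (0.26 and 0.12), on the brighter of its 2 probes; their dKO calls were lost under 7 and 9 alternative settings. H2-Q8 had 0.22 and 1.19 in Atg7 cKO, -0.24 and 1.90 in dKO and -0.68 and 0.80 directly, and was called in no comparison, except with set as a block in dKO (adjusted p = 0.0432, the lowest of a range up to 0.768).

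Probes of 1 gene disagreed in several cases, and the disagreement followed the experiment. In dKO over wild type the 4 H2-Ab1 probes, from the brightest to the dimmest, had 2.46, 1.72, 0.69 and -0.19 in experiment 3 but 2.71, 2.81, 2.28 and 1.78 in experiment 6. Directly over Atg7 cKO they had 1.61, 0.90, 0.28 and -4.26 in experiment 7 but 0.84, 0.74, 0.67 and 0.70 in experiment 8. The dimmest probe was not well above background in any Nrf2 KO channel. Probe 3 (mm9, chr17:34401723-34401782, plus strand) and probe 4, which the annotation leaves unmapped on mm9, overlap by 31 positions with 2 differences, in capitals. Probe 2 lies farther along the gene (mm9, chr17:34404388-34404447, plus strand).
H2-Ab1 probe 2: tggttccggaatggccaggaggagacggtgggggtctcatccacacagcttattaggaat
H2-Ab1 probe 3: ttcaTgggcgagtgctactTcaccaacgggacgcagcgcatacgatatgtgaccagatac
H2-Ab1 probe 4: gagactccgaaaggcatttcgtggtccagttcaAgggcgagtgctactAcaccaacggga
As background, the peptide-binding part of class II beta chains differs widely between mouse haplotypes.

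Of the 4 H2-Ab1 probes only the brightest was called directly, and probes 3 and 4 were not called in Atg7 cKO. Probe 4 was not called in dKO over wild type either (fitted 0.80, adjusted p = 0.252). H2-Aa showed the same order. Its second probe had 0.97 in experiment 3, where the brightest had 2.44, and 2.31 in experiment 6, where the brightest had 2.18, and it was not called directly (0.66, adjusted p = 0.383). The brightest H2-Bl probe had -0.62, -0.40 and -0.61 in experiments 1, 3 and 7 but 0.09, 1.10 and 0.67 in experiments 4, 6 and 8, with no call. In Atg7 cKO it had 0.27 and 0.58. The other 2 H2-Bl probes were called higher in Atg7 cKO (fitted 1.01 and 0.58, adjusted p = 0.044 and 0.038) and lower in dKO than in Atg7 cKO in the direct comparison (-2.24 and -2.51 for the brighter, -2.15 and -2.08 for the dimmer, adjusted p = 0.019 and 0.013). These were the 2 member probes called lower there. In dKO over wild type they had fitted values of -0.65 and -0.40, not called.

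**Figure D4:**
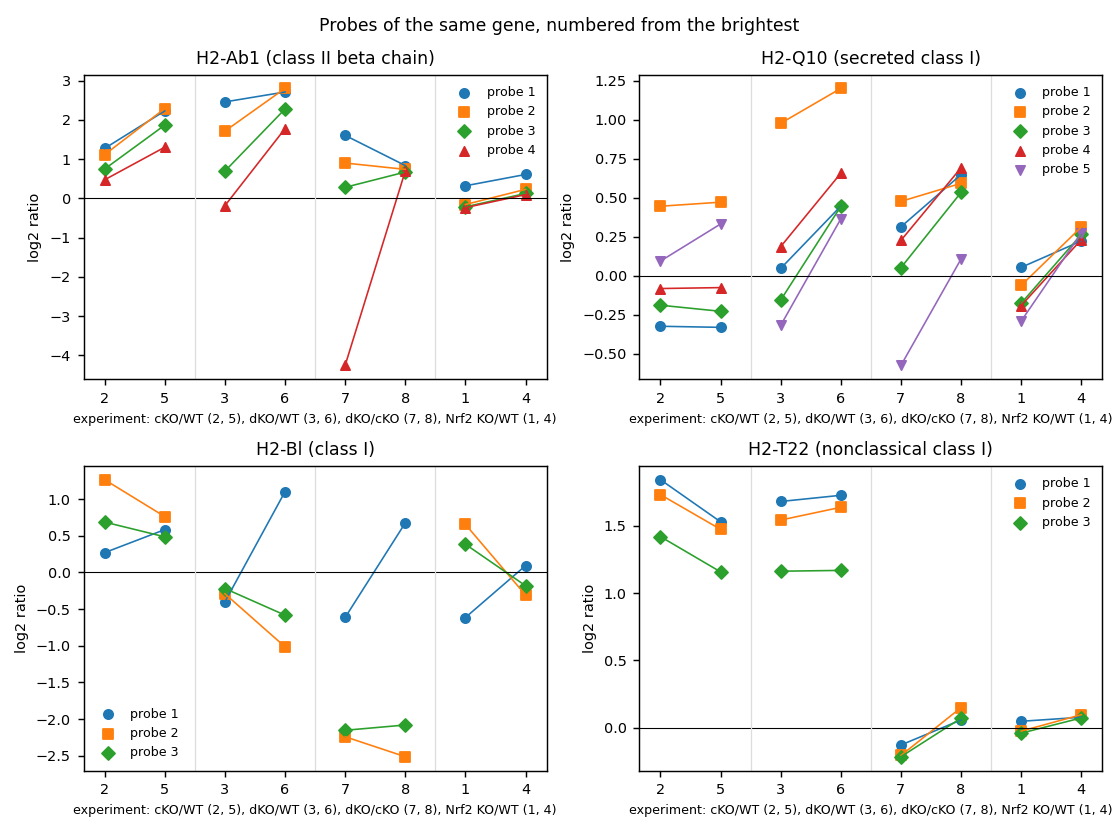
Log2 ratio of every kept probe of H2-Ab1, H2-Q10, H2-Bl and H2-T22 in the 8 experiments, probes numbered from the brightest and experiments of a comparison joined. The 3 H2-T22 probes run together, H2-Q10 probe 2 stands above the other H2-Q10 probes in experiments 2, 5, 3 and 6, and the H2-Ab1 probes spread apart in experiments 3 and 7.

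Most members lie in 1 stretch of chromosome 17, where the other genes of the stretch had a median ratio near 0, though a larger share called higher than over all probes. Between the outermost kept members (mm9, chr17:34063096-37411409) there were 50 member probes, of which 38 were called higher in dKO with a median log2 ratio of 1.16. The other 141 probes kept in the same stretch, of 105 gene names, had 43 called higher (30.5%, against 19.3% of all probes) and a median of 0.08. The 11 member probes elsewhere or unmapped (1 each of H2-Ab1 and H2-K1 among them), with those of B2m on chromosome 2, Psmb10 on chromosome 8, Psme1 and Psme2 on chromosome 14, Ciita on chromosome 16 and Cd74 on chromosome 18, had 10 called higher and a median of 1.03. In Atg7 cKO the medians of these 3 sets were 0.61, 0.04 and 0.67. Of the other probes in the stretch 25.5% were called higher in Atg7 cKO, against 21.9% of all probes. In dKO directly over Atg7 cKO it was 8.51%, against 5.68%.

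The 3 other H2- names differed among themselves. H2-D4, from the D region, had 0.93 and 0.96 in dKO (called) and 0.26 and 0.25 in Atg7 cKO (adjusted p = 0.053). H2-Ke2, an old name of a prefoldin subunit gene, was not called in any comparison (-0.14 and -0.07 in Atg7 cKO, -0.28 and 0.01 in dKO), but under median centring of the arrays it was called higher in Atg7 cKO (0.35). H2-Ke6, an old name of a hydroxysteroid dehydrogenase gene, was the 1 member called lower, at -0.43 and -0.83 in Atg7 cKO (adjusted p = 0.013) and -1.06 and -0.76 in dKO (adjusted p = 0.0044). The Atg7 cKO call was lost without experiment 5 and under median centring.

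Promoter sequence was searched because these genes moved together. RefSeq starts on GRCm38.p6 were available for 23 of the 34 gene names, each window holding 300 bases around a start. Letters searched on both strands were the Y box ATTGG (bound by NF-Y), the X2 core TGACG (bound by CREB-family factors), the interferon-stimulated response element core GAAANNGAA and the gamma-activated site TTCNNNGAA. The Y box letters stood in 18 of the 23 genes (78.3%), against 41.1% of 27025 genes with a full window. The X2 letters stood in 10 (43.5%, against 23.0%), the ISRE core in 4 (17.4%, against 9.8%) and the GAS letters in 2 (8.7%, against 9.6%). All 5 class II genes and both classical class I genes with a window held the Y box, and 4 of 8 supply genes did. The X2 letters stood in 1 of 5 class II genes, H2-Aa, in both classical class I genes and in 4 of 8 supply genes. The windows of Psmb9 and Tap1 largely overlap, so letters in the overlap are counted for both genes. The letters of the ISRE core stood in B2m, Psme1, H2-T22 and H2-T23. A match describes letters and not a bound site. An element that departs from the letters searched was not counted. A gene without a match, H2-K1 and H2-D1 for the ISRE core among them, thus cannot be said to lack such an element. The windows of H2-Aa (chr17:34287774-34288073, minus strand) and H2-K1 (chr17:34000298-34000597, minus strand) are shown for class II and class I, with B2m (chr2:122147437-122147736, plus strand) and H2-T22 (chr17:36042693-36042992, minus strand) for the members that hold the ISRE core, all on GRCm38.p6 with matches to any of the 4 motifs in capitals.
H2-Aa promoter: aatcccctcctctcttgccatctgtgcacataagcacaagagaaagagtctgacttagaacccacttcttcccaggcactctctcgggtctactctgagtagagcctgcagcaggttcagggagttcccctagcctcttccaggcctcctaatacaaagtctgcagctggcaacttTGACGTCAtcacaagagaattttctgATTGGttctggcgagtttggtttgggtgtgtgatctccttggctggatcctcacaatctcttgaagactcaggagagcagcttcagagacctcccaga
H2-K1 promoter: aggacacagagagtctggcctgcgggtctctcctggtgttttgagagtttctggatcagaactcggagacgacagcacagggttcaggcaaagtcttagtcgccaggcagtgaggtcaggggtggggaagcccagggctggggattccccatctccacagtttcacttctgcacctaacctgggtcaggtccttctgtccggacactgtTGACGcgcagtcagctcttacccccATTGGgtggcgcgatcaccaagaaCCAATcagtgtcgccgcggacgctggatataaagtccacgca
B2m promoter: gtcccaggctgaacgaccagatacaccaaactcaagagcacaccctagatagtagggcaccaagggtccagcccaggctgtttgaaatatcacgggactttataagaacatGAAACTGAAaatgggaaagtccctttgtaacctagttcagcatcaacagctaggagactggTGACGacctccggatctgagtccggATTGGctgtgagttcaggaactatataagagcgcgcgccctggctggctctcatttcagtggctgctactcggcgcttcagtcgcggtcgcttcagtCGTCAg
H2-T22 promoter: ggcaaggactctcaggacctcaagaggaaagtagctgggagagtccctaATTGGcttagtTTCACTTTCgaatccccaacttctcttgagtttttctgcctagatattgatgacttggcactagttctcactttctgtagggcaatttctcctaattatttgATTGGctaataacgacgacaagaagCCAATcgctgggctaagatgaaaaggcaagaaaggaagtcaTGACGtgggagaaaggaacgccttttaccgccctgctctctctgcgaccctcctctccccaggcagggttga

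Genes that act beside the members split by step. For reading the counts of these lists, 21.9% of all probes were called higher and 15.2% lower in Atg7 cKO. In dKO the shares were 19.3% and 14.9%, and directly over Atg7 cKO 5.68% and 7.36%. Of 10 genes of the class II endosomal route, 8 rose and 1 fell in Atg7 cKO and 9 rose and 1 fell in dKO, with medians of 1.06 and 1.29, but 1 was called in dKO directly over Atg7 cKO (Cst3, an inhibitor of cysteine cathepsins, 0.51). Ctss, the cathepsin that trims the invariant chain, had 2.80 in Atg7 cKO and 3.30 in dKO. Slc11a1, a metal ion transporter of phagosomes, had 1.72 in Atg7 cKO, and Ifi30, the thiol reductase of the endosome, had 1.94 in dKO. The endosomal list thus rose in both knockouts, with a direct median of 0.14 (0.41 and -0.05 in experiments 7 and 8). The class II genes themselves had a direct median of 1.47 (2.03 and 0.99). Direct ratios carry no offset and are larger for dim genes. Through wild type, on the scale with the offset, the class II gene median was 0.99.

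A list of class I assembly helpers and class I-like molecules (Hfe, Fcgrt, Cd1d1, Mr1 and Azgp1) did not follow the heavy chains as a whole. In Atg7 cKO 5 of 10 fell and none rose, among them the chaperone Calr (-0.96) and the class I-like secreted protein Azgp1 (-0.93). In dKO 2 rose and 5 fell. The tapasin homologue Tapbpl (0.75) and the peptide trimmer Erap1 (0.66) rose. The chaperone Canx (-0.17) fell, as did the class I-like Hfe, Fcgrt, Azgp1 and the lipid-presenting Cd1d1 (-0.68). Calr and Pdia3 were not called in dKO. Tapbpl (0.78, adjusted p = 0.0105) and Erap1 (0.66, adjusted p = 0.0227) were also higher in dKO directly over Atg7 cKO, and Hfe, a class I-like regulator of iron uptake, was lower (-0.50, adjusted p = 0.0241).

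Of 20 regulators measured, 7 rose and 1 fell in Atg7 cKO, 14 rose and 1 fell in dKO, and 8 were higher and 1 lower in dKO directly over Atg7 cKO. Over all probes 21.9%, 19.3% and 5.68% were called higher in these comparisons. In Atg7 cKO Ifngr1, a chain of the interferon gamma receptor, rose by 1.50 and the myeloid factor Irf8 by 1.08. In dKO Irf1, an interferon-induced transcription factor, rose by 2.06. Socs1, the feedback inhibitor of interferon signalling, was 2.25 higher in dKO than in Atg7 cKO (adjusted p = 0.0138). Of 11 receptors and costimulators measured, 5 rose and 1 fell in Atg7 cKO, 7 rose in dKO and 5 were higher in dKO directly. Icam1, an adhesion partner of T cells, had 1.34 in Atg7 cKO and 2.56 in dKO, Cd274 (PD-L1) had 0.68 and 1.64, and Cd274 (1.67) and Cd8a (1.42) were higher in dKO directly over Atg7 cKO. Cd8a was dim (mean log2 signal 5.98) and had 0.36 in dKO over wild type. Ratios of dim genes are larger in the direct comparison, which carries no offset.

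Macrophage markers and part of the dendritic cell markers moved with class II over wild type, B cell markers did not as a list, and their part in the results was not tested. In whole liver RNA, more cells of a type and more RNA per cell cannot be told apart. Of 12 macrophage markers 10 rose and 1 fell (Cd163) in Atg7 cKO and 11 rose and 1 fell in dKO, with summed signals of 31750 to 51014 in Atg7 cKO and 61629 to 68880 in dKO, against 8877 to 10928 in their wild-type channels. In dKO directly over Atg7 cKO 2 of the 12 were called, Marco (1.44) and Timd4 (2.28), with medians of 0.67 and -0.02 in experiments 7 and 8. Of 7 dendritic cell markers measured 4 rose in Atg7 cKO and 5 in dKO, and 1 was called directly (Clec10a, 0.94). Flt3, Cd209a and Siglech were not above background.

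Of 9 T and NK cell markers 4 rose in Atg7 cKO, 7 rose in dKO and 7 were higher directly, with direct medians of 1.16 and 0.81. Over wild type, on the scale with the offset, the medians were 0.24 in Atg7 cKO and 0.64 in dKO. Ratios of dim genes are smaller on that scale. Their summed signals were 707 to 812 in Atg7 cKO and 958 to 1052 in dKO, against 655 to 696 in wild type. Of 7 B cell markers, Cd79a, Pax5, Cr2 and Blk were not above background; among the other 3, 1 rose (Cd79b, 0.41) and 1 fell in Atg7 cKO, and none was called in dKO or directly. Of 7 hepatocyte markers measured 6 fell in Atg7 cKO and 5 in dKO, with medians of -1.41 and -0.95. Of 7 endothelial markers 2 rose in Atg7 cKO, and 1 rose and 3 fell in dKO. Beside these small lists, 21.9% of all probes were called higher and 15.2% lower in Atg7 cKO, and 19.3% and 14.9% in dKO.

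**Figure D5:**
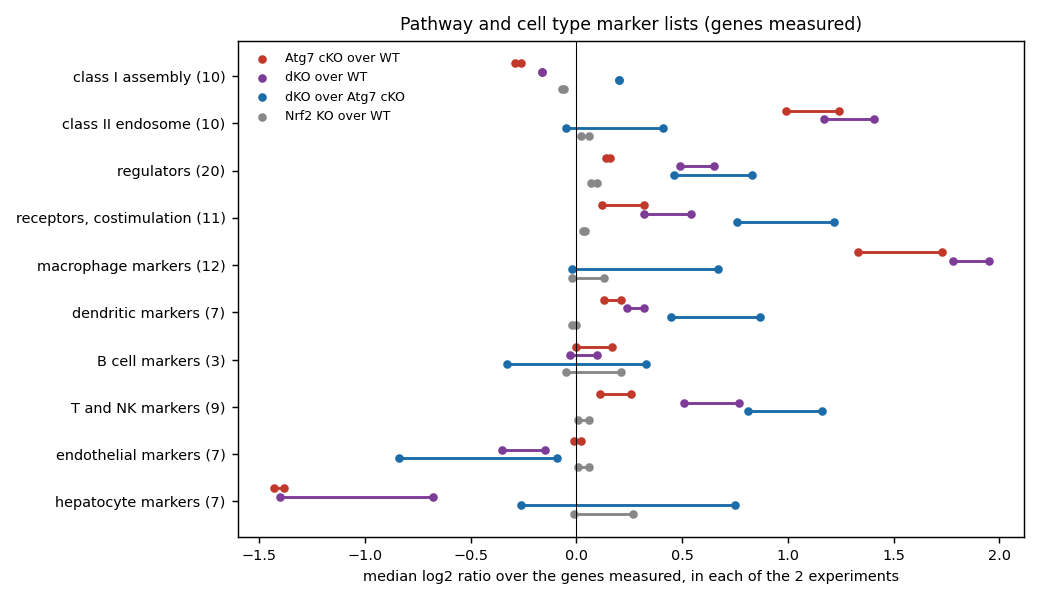
Median log2 ratio over the measured genes of each pathway and marker list, with the 2 experiments of each comparison as joined points and the number of genes in brackets. Macrophage markers and the class II endosomal list lie above 1 in Atg7 cKO and dKO (0.99 in 1 Atg7 cKO experiment for the latter), while receptors with costimulators (1.07) and T and NK markers (0.98) have the highest medians in dKO over Atg7 cKO.

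Nrf2 deficiency alone gave no call among the members. On the brightest probe of each gene, class II lay above 0 in both experiments for 7 of 8 genes. Cd74 had 0.86 and 0.45, H2-Aa 0.76 and 0.40 and H2-DMb1 0.56 and 0.56 (adjusted p = 1 for each). Other probes of these genes did not all follow: of 14 class II probes, 9 had a fitted ratio above 0. The second H2-Aa probe had -0.044 and 0.006. H2-Ab1 probes 2, 3 and 4 had -0.155, -0.215 and -0.235 in experiment 1 but 0.231, 0.126 and 0.097 in experiment 4. Classical class I did not share a sign, H2-K1 having -0.34 and 0.31. Whether the effect of losing both genes departed from the sum of the single effects was tested as dKO minus Atg7 cKO minus Nrf2 KO. No member was called for this interaction, where 0.649% of all probes were, although 32 of 61 had an unadjusted limma p under 0.05 (3211 of all 23581) and the lowest adjusted p was 0.129. The median departure was 0.44 log2 units over the 61 probes.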

How the data were processed

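Liver RNA was compared on 16 arrays of 8 dye-swapped experiments. The authors' scanner files of experiments 1 to 6 hold mean signal and median background as intensity, with flags, from Agilent Feature Extraction 9.5.1.1 per the file headers (9.5.1 per the submitters' processing notes), with probe coordinates on mm9. The deposited value table holds log10 ratios of Cy5 over Cy3 for all 16 arrays; on the 12 arrays with a scanner file it differed from that file's log10 ratio by at most 0.005. Each of its columns has a median of 0. Experiments 7 and 8 were read from that table alone. Median signals were 41.82 to 55.63 over backgrounds of 34.5 to 36.5, and 43.42% to 57.19% of spots were above background; the number of arrays limits the precision.

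Signals were corrected with normexp (offset 50) and loess in limma 3.58.1 (R 4.3.3), turned to knockout over partner, and averaged per probe and dye swap; control and outlier spots were left out. The log2 ratios of experiments 1 to 6 entered one limma fit of 3 group means (with the contrast through wild type and the interaction), and the deposited log10 ratios, converted to log2, entered a second fit of 4 group means over all 8 experiments. P-values were adjusted by Benjamini-Hochberg over all 23581 probes. The fits were tested on simulated data. A gene was named through its brightest kept probe, and further probes where call or direction differed; of the pathway lists, the 2 called genes per comparison with the largest ratio and one sign in both experiments were named, and other genes where a count or a contrast asked for them were chosen after their values were seen. The members and lists were chosen with earlier results of these data known. Slide, set, scaling, filter, probe choice and left-out experiments were tried as alternatives. Some list genes are not reported here by name.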

Additional observations from a re-analysis of the deposited data

Results flagged for a closer look

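H2-Ea, the class II alpha chain of the I-E molecule, was left out of the tests because it was well above background in too few channels. It was above background in 3 of the 4 dKO channels, against 0 of the 4 wild-type channels beside them, and in 0 of all 12 wild-type channels. No fold is given, since the wild-type side has only a bound. Among the 61 probes tested, no wild-type level stood apart from those of the other 5 experiments by Dixon's test.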

How the results depend on the processing

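Members called in Atg7 cKO and dKO numbered 24 and 29 with 1 probe per gene (fewer probes tested) and, with an experiment left out, 25 to 41 and 40 to 49. Directly, 23 were called with 1 probe per gene, 2 with only the 2 experiments, 13 through wild type, and 0 to 30 with an experiment left out. In Nrf2 KO a dye term with experiments as random blocks called 2. The cause of these moves was not tested.

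Of all probes, Nrf2 KO calls were 11 with slide as a block, 16 with set as a block, 128 with the dye term, 5 with only the 2 experiments, and 0 to 3 with an experiment left out. Atg7 cKO gave 4345 with only the 2 experiments and 4150 to 7828 with an experiment left out, and dKO 3552 to 8128. Directly, 233 were called with only the 2 experiments, 1012 through wild type, and 369 to 2360 with an experiment left out. The interaction gave 3 with processed signals, 81 with median centring, 32 with slide and 415 with set as a block, 1535 with the dye term, and 2 to 104 with an experiment left out.

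Over the settings run, the class medians over probes were above 0 except class I in Nrf2 KO without experiment 4 (-0.03; 0.24 without experiment 1). In Atg7 cKO class I was 0.68 with processed signals, 0.88 with median centring, 0.31 without a filter and 0.68 with 1 probe per gene; supply was 0.69 with processed signals, 1.01 with median centring and 0.67 with 1 probe per gene. In dKO class I was 1.26 with processed signals, 0.40 without a filter, 1.46 with 1 probe per gene and 0.84 with probes listed for 1 gene only, an alternative added after seeing the data; supply was 1.31 with processed signals, 1.30 with an offset of 10 and with median centring, 1.21 with 1 probe per gene and 1.03 to 1.14 with an experiment left out; class II was 2.73, 2.46, 1.35 and 2.38 with processed signals, an offset of 10, no filter and 1 probe per gene. Directly, class I was 0.20 without a filter, supply 1.09 with 1 probe per gene and 0.67 through wild type, and class II 0.64 through wild type. In Nrf2 KO supply was 0.19 with median centring, and class II 0.49 with processed signals, 0.28 with an offset of 10, 0.01 without a filter, 0.40 with slide as a block, 0.42 with 1 probe per gene and 0.09 to 0.19 with an experiment left out.

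Median centring moved the median of all probes kept to 0.18 in Atg7 cKO and 0.12 in dKO and the share of calls that were higher to 90.8% and 85.9%, against 59.1% and 56.5%; processed signals gave 48.7% and 46.2%. Under median centring H2-Ke2 turned to 0.35 in Atg7 cKO, and H2-Ke6 lost its call there (-0.18). Dim probes limit H2-Oa, H2-T24 and H2-M10.2. No paired analysis was possible because the groups share no experiment numbers; set, which is no replicate number, was fitted as a block in its place and gave 46 members called in Atg7 cKO and 54 in dKO.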
